A study of Mus musculus with 16 samples.

Results

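The mitochondrial ribosomal proteins described here were the protein-coding genes of the expression table whose symbol begins with Mrpl or Mrps followed by a digit. The rule gave 77 genes among the 35275 rows of the table, of which 22026 were protein coding. Mrpl names, given to large subunit proteins, accounted for 48 members and Mrps names for 29. Most Mrps names belong to small subunit proteins; Mrps18a and Mrps30 sit in the large subunit, and Mrps36 has since been placed outside the ribosome. The naming rule used no measured value, although the set was proposed with earlier results of these data known. A further 4 rows with Mrp names were pseudogenes and were not members. The members lay on 17 chromosomes (mouse build mm10), so no single locus held the set.

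Mitochondria keep their own ribosome, which translates only the few proteins encoded in mitochondrial DNA, all of them core subunits of the respiratory chain and ATP synthase. Its RNAs come from the mitochondrial genome, while its proteins are encoded in the nucleus, made in the cytosol and imported. Some of these proteins descend from bacterial ribosomal proteins and others were added in the mitochondrial lineage, and skeletal muscle, with its high respiratory demand, is among the tissues affected when the system fails.

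The libraries came from C2C12 cells, an established mouse myoblast line described by the labels as PAX7 NEG. Control cells, labelled wild-type, were 2 populations. The triple knockout (tKO) cells were 2 clones in which the gene for miR-206 and those for miR-1a-1 and miR-1a-2 had been disrupted, so each clone carries whatever else its founder cell carried. Each line was sampled in growth medium with 20% FBS (GM) and 3 days after a change to 2% HS (DM3), in 2 cultures (BR1 and BR2). That gave 4 libraries for each combination of genotype and stage. No agent other than the change of serum was named. The 4 libraries of a group are therefore 2 lines with 2 cultures each and not 4 separate lines. The loss of the miRNAs themselves was not checked here.

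Library depth ran from 22642563 to 56585952 fragments assigned to genes, and the 2 deepest libraries were those of control line 1 in DM3 (38186624 and 56585952). The cell type markers followed the labels. The summed FPKM (fragments scaled by gene length and library depth) of 6 proliferation genes went from 388 to 430 in control GM libraries down to 89.7 to 113 after differentiation. In tKO it went from 300.2 to 453 down to 36.8 to 126, and all 6 genes fell in both genotypes. The summed FPKM of 6 myotube genes was at most 2.54 in any GM library, 235 to 318 in the differentiated control libraries and 122 to 289 in the differentiated tKO libraries, and the 5 of them that were tested all rose in both genotypes. Pax7, the satellite cell marker, reached at most 0.0237 FPKM in any library, as the label PAX7 NEG states. The endothelial, neural and osteoblast lists summed to at most 0.530 FPKM in any library, the immune list to 4.04 and the adipocyte list to at most 11.51, whereas the fibro-adipogenic list (Pdgfra and Ly6a) ranged from 42.5 to 60.9 before and 52.6 to 212 after differentiation of control cells, and from 21.8 to 55.7 and 50.7 to 149 in tKO cells. Ly6a rose with differentiation in both genotypes (mean 46.8 to 126.6 FPKM in control and 38.1 to 100.02 in tKO). Pdgfra rose in tKO (a log2 difference of 0.56) and was lower in tKO than in control GM (-1.27). Their part in the member results was not tested.

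Of the 77 members, 76 passed the filter of a mean of at least 0.5 FPKM over the 16 libraries. The exception, Mrpl53 (chromosome 6, 83109095 to 83109939), was listed at 0 in all 16 libraries. Its interval shares 845 bases with Ccdc142 on the same strand, which averaged 0.75 FPKM. Every other member had at least 177 fragments in every library.

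In level the set spanned 48.0-fold. The median member stood at 20.1 FPKM over the 16 libraries, against 9.71 FPKM for all 11832 genes tested, and 62 members lay above that overall median. Most members (52) lay between 10 and 50 FPKM. Members with Mrpl names had a median of 23.4 FPKM (47 genes) and those with Mrps names 13.8 FPKM (29 genes). The highest means belonged to Mrpl52 (137), Mrpl42 (118), Mrpl30 (86.8), Mrps16 (77.1), Mrpl54 (71.1) and Mrpl2 (65.3), the last of which lies near the peptidyl transferase centre. The lowest belonged to Mrpl35 (2.86), Mrpl47 (4.33), Mrps22 (4.54), Mrps25 (4.55), Mrpl1 (4.58) and Mrps35 (4.76). Across members, mean FPKM and the gene length used for FPKM had a Spearman rho of -0.73, while over all tested genes it was -0.062; genes are not independent replicates, and length enters both quantities. The cytosolic ribosomal proteins, which build the ribosome outside mitochondria, had a median of 603 FPKM, and the subunits of complex I, the first respiratory chain complex, had 57.3 FPKM.

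**Figure D1:**
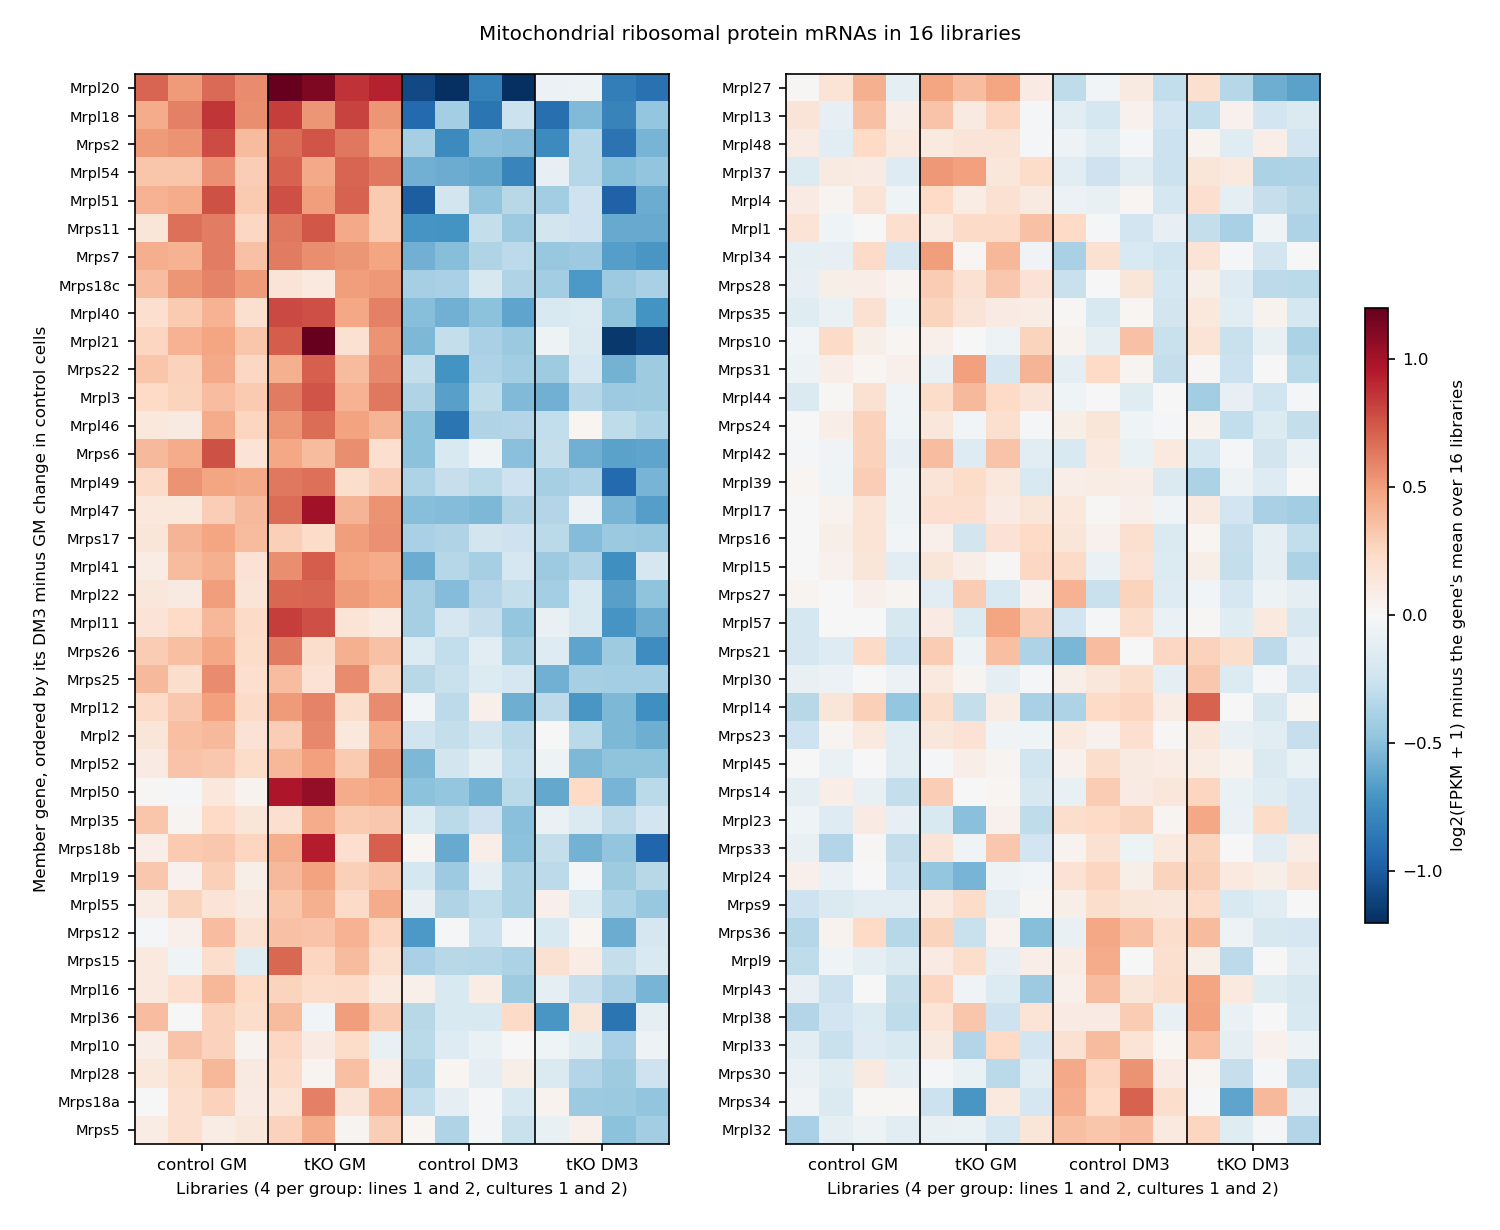
Heat map of the 76 expressed members (rows, ordered by their change in control cells) in the 16 libraries (columns), coloured by log2(FPKM + 1) minus the gene's mean over all libraries. Most members in the left panel were higher in the GM libraries than in the DM3 libraries of both genotypes, while Mrpl32 and Mrps30 at the foot of the right panel had their highest group mean in control DM3.

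Many of these mRNAs fell with differentiation, but in control cells their share was not far above that of all tested genes. In control cells 35 of the 76 members fell between GM and DM3 and 6 rose (limma on log2(FPKM + 1), adjusted p under 0.05). In all tested genes 61.5% passed in this comparison (38.3% lower and 23.2% higher), beside 46.05% of members that fell and 7.89% that rose. The median change of the members was -0.27 on the log2 scale, against -0.15 for all tested genes. In 37 members every DM3 library lay below every GM library (39.8% of all tested genes) and in 9 every one lay above (24.5%). Because these are bulk samples, fewer cells of a kind and less RNA per cell cannot be told apart, and the fall of the proliferation genes given above moved with every DM3 against GM comparison; its part in the result was not tested.

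In tKO cells 48 members fell and 1 rose. The background there was 60.9% (36% lower and 24.9% higher), and the median change was -0.47 against -0.12 for all tested genes. All DM3 libraries lay below all GM libraries in 38 members (29.8% of all tested genes) and above them in 1 (19.3%). Every one of the 35 members that fell in control cells also fell in tKO cells, which is 100% of the control list and 72.9% of the tKO list. The 2 comparisons share no library, but the spread of each gene was estimated from all 16 libraries in 1 fit. How many of all tested genes fell in both genotypes was not counted. The other 13 members on the tKO list had estimates between -0.33 and 0.02 in control cells and did not pass there; the difference between the genotypes was tested and is given further on.

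The counts depended on scaling and on how many lines were used. Scaling by median of ratios put the median of all tested genes at 0.01 in control and 0.006 in tKO, and that of the members at -0.079 and -0.32. In control cells 23 members then fell and 15 rose, against a background of 30.7% lower and 30.5% higher, so the share of members that fell was near that of all genes. In tKO cells 39 fell and 2 rose, against 30.3% and 30.2%. Of the 35 members, 23 kept a fall in both genotypes. With control line 1 left out 22 members passed in control cells (37.5% of all tested genes did) and with line 2 left out 23 did (39.7%), and in each case 22 fell in both genotypes.

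**Figure D2:**
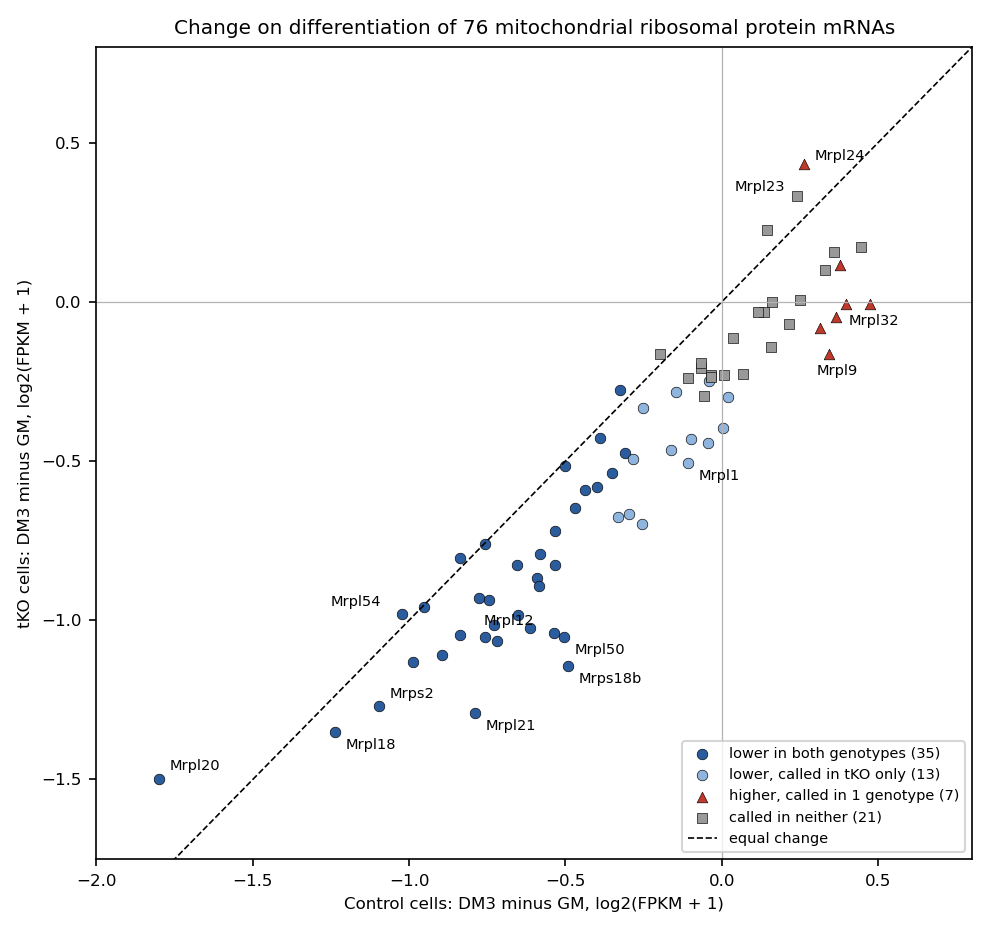
DM3 minus GM change of each of the 76 members on the log2(FPKM + 1) scale in control cells (horizontal axis) and tKO cells (vertical axis), with symbols for the calls and a dashed line for equal change. Most points lie below the dashed line, and the 35 members that fell in both genotypes form the lower left arm down to Mrpl20 at -1.80 and -1.50.

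Among large subunit proteins, Mrpl20 fell most. Mrpl20 (chromosome 4, 155802878 to 155809975) is the relative of bacterial L20, an early assembly protein. Its FPKM in control GM was 56.1 and 49.0 in the cultures of line 1 and 55.4 and 51.2 in those of line 2, and in control DM3 it was 15.6, 13.3, 19.1 and 10.97 in the same order. In tKO GM it was 80.6 and 75.6 in clone 1 and 63.3 and 65.6 in clone 2, and in tKO DM3 it was 32.4, 32.8, 18.8 and 17.8. No DM3 library reached any GM library in either genotype. The change was -1.80 (SE 0.19, adjusted p = 8.02e-07) in control and -1.50 (SE 0.19, adjusted p = 5.18e-06) in tKO.

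Mrpl18, the relative of bacterial L18, followed (chromosome 17, 12911349 to 12916345). It stood at 29.9, 33.4, 40.1 and 32.3 FPKM in control GM and at 10.9, 16.0, 11.3 and 17.9 in control DM3. In tKO cells it stood at 39.1, 31.8, 38.8 and 31.7 in GM and at 11.1, 14.7, 11.96 and 15.4 in DM3. The ranges of the 2 genotypes overlapped at each stage, those of the 2 stages did not, and the changes were -1.24 (SE 0.16) and -1.35 (SE 0.16). Mrpl54 and Mrpl51, which have no bacterial counterpart, fell by 1.02 and 0.99 in control cells and by 0.98 and 1.13 in tKO cells. Mrpl21 differed between the tKO clones in DM3, where its values were 23.4 and 21.7 FPKM in clone 1 and 10.4 and 10.9 in clone 2, with a fall of 1.29 in tKO and of 0.79 in control. Its control call was lost with either control line left out and with averages per line.

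Mrpl12 forms the mobile stalk of the large subunit and has also been reported to bind the mitochondrial RNA polymerase. In control cells it averaged 40.8 ± 3.73 FPKM (SD, n = 4) before and 28.2 ± 5.72 after differentiation, a fall of 0.54 (adjusted p = 0.0037) whose call was lost under median-of-ratios scaling (0.34) and without control line 2 (0.45), with adjusted p from 0.00101 to 0.102 over the alternatives. In tKO cells it went from 45.5 ± 5.43 to 21.7 ± 3.07, a fall of 1.04 (adjusted p = 1.02e-05). Mrpl44, an RNase III relative in the large subunit, did not pass in control cells (-0.05, adjusted p = 0.734) and fell by 0.44 in tKO cells.

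Among the Mrps names, Mrps2, Mrps11 and Mrps7 fell furthest in control cells. Mrps2 (chromosome 2, 28468066 to 28471178) averaged 14.4 ± 1.85 FPKM in control GM and 6.22 ± 0.744 in control DM3, and in tKO cells it averaged 15.3 ± 1.35 and 5.81 ± 1.14. The change was -1.10 in control and -1.27 in tKO. Mrps7, a protein of the small subunit head, went from 31.7 to 38.3 FPKM down to 16.2 to 19.7 in control and from 34.7 to 38.5 FPKM down to 14.8 to 17.9 in tKO. Mrps12, at the decoding centre, fell by 0.40 (adjusted p = 0.0318) and 0.58, and its control call was lost under 8 of 20 alternatives, among them leaving out line 2 BR1 of GM (-0.33, adjusted p = 0.101), line 1 BR1 of DM3 (-0.25, adjusted p = 0.131) or either line; over the alternatives the adjusted p ran from 0.0169 to 0.217.

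The 3 Mrps18 genes are paralogues related to bacterial S18, and all fell in tKO cells. Mrps18c was the most abundant, at 40.2 ± 2.66 FPKM in control GM, and fell by 0.84 in control and 0.81 in tKO. Mrps18b fell by 0.49 in control, from 14.4 ± 1.15 to 10.2 ± 2.66 FPKM, and by 1.14 in tKO, from 18.7 ± 4.36 to 7.88 ± 1.64. In control DM3 its 2 cultures stood apart in both lines: 12.2 and 12.7 FPKM in BR1 against 7.57 and 8.23 in BR2. Its control call was lost under 9 of 20 alternatives, 5 of them single control libraries left out (adjusted p from 0.0129 to 0.222). Mrps18a, which in spite of its name sits in the large subunit, gave -0.30 in control (adjusted p = 0.0638) and fell by 0.67 in tKO.

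The members that rose did so by less. In control cells they were Mrpl32 (0.47), Mrps30 (0.40), Mrpl33 (0.38), Mrpl38 (0.37), Mrpl9 (0.34) and Mrps9 (0.31). The call of Mrpl38 was lost under 9 of 20 alternatives (adjusted p from 0.00479 to 0.288) and that of Mrpl33 under 4 (0.00284 to 0.357). Without control line 1 the estimates of Mrpl32 and Mrps30 were 0.34 and 0.33, neither of which passed. Mrpl32 (chromosome 13, 14610301 to 14613037) is cut to its mature form by the m-AAA protease of the inner membrane. It stood at 18.8, 22.9, 23.9 and 22.5 FPKM in control GM and at 32.3, 31.7, 32.5 and 27.1 in control DM3, with no overlap. In tKO cells it was 23.4, 23.5, 21.3 and 27.7 in GM and 30.01, 22.4, 24.5 and 19.3 in DM3, where the groups overlapped and the estimate was -0.01. Under median-of-ratios scaling the tKO estimate of Mrpl32 was 0.15. Mrps34 (0.44, adjusted p = 0.056) and Mrpl43 (0.36, adjusted p = 0.0555) had estimates of the same size in control cells and did not pass.

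In tKO cells the single member that rose was Mrpl24, from 19.1 ± 3.72 to 25.8 ± 1.75 FPKM, a change of 0.43 (adjusted p = 0.00582). Without tKO clone 1 it was 0.16 (adjusted p = 0.311, the highest over its alternatives, the lowest being 0.00104). In control cells Mrpl24 went from 22.01 ± 2.16 to 26.6 ± 1.74 FPKM, 0.26 (adjusted p = 0.0725). Mrpl23 (0.33, adjusted p = 0.0506) and Mrpl14 (0.22, adjusted p = 0.385) came next in tKO and did not pass, although Mrpl23 passed under 9 of 20 alternatives (adjusted p from 0.0128 to 0.512). Mrps36, since placed in the alpha-ketoglutarate dehydrogenase complex and not in the ribosome, did not pass in either genotype (0.33 and 0.10).

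**Figure D3:**
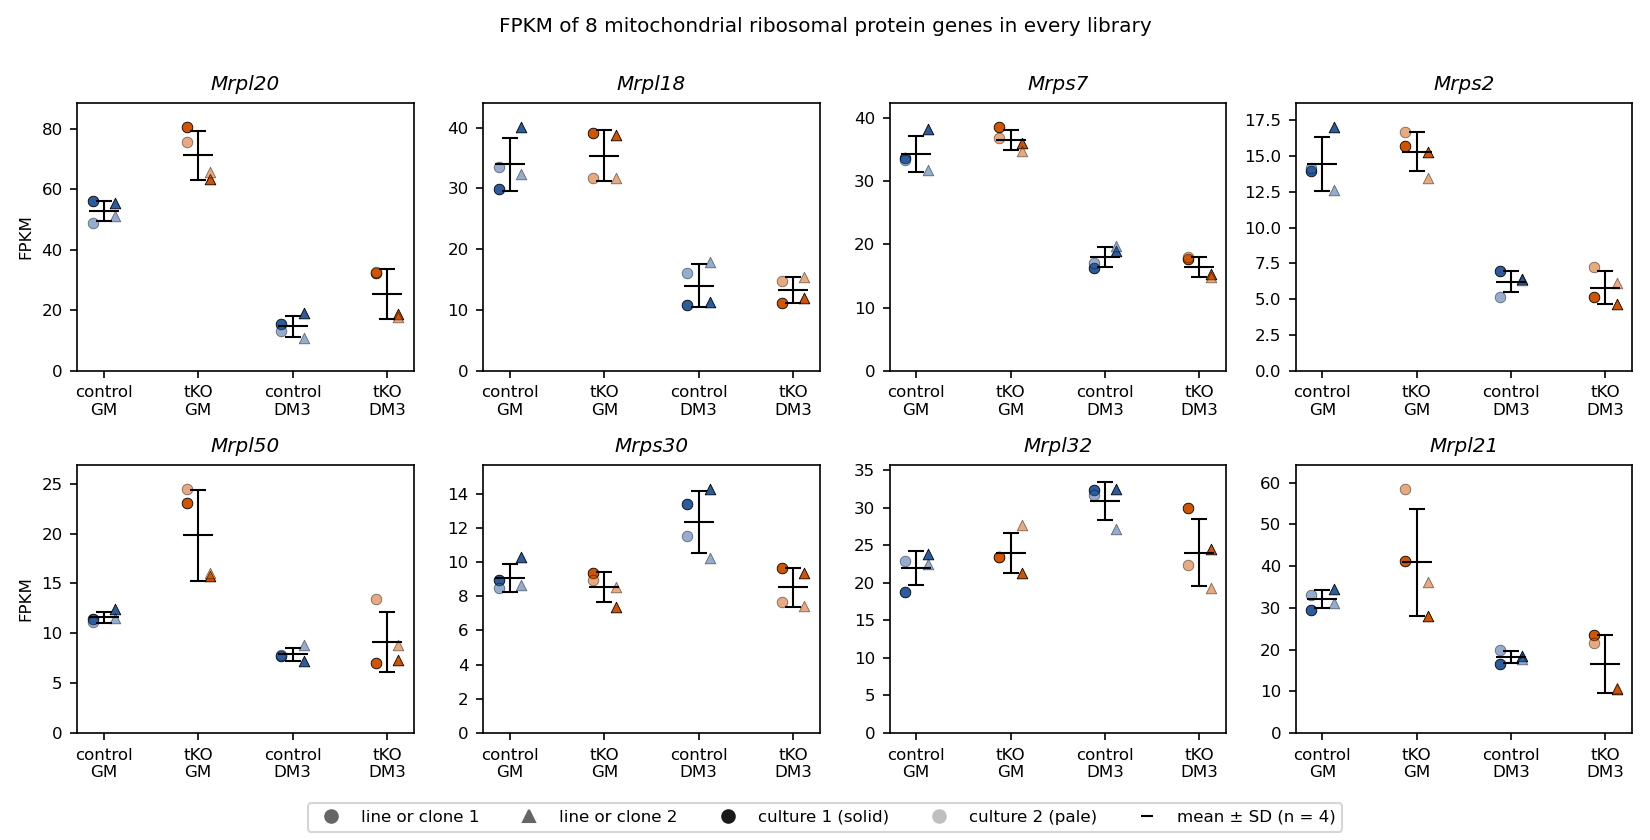
FPKM of 8 members in each of the 16 libraries (circles line or clone 1, triangles line or clone 2, solid culture 1, pale culture 2), with the mean and SD of the 4 libraries of each group. Mrpl20, Mrpl18, Mrps7 and Mrps2 show no overlap between GM and DM3, Mrpl50 is highest in tKO GM with clone 1 above clone 2, and Mrps30 and Mrpl32 have their highest group mean in control DM3.

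By name, 23 of 47 tested Mrpl members fell and 4 rose in control cells, and 32 fell and 1 rose in tKO cells. Of 29 Mrps members 12 fell and 2 rose in control and 16 fell and none rose in tKO. The Mrps count includes Mrps18a, Mrps30 and Mrps36, and Mrps30 was 1 of its 2 rises. The median of the Mrps members in control cells was -0.10, above the -0.15 of all tested genes, and turned to 0.10 under median-of-ratios scaling, while that of the Mrpl members was -0.31 and -0.11. The difference between the name groups was not tested. Of the 46 members listed here as bacterial orthologues of the core set, 23 fell in control and 33 in tKO. The list includes Mrpl55, which fell in both genotypes and whose place on it was not checked. Of the other 30 tested members, which here include Mrps18a and Mrps18b, 12 fell in control and 15 in tKO. In control the falls were 48.94% of Mrpl, 41.38% of Mrps, 50% of the listed orthologues and 40% of the other members. The share of all tested genes that fell there was 38.3%, and 23.2% rose. In tKO the falls were 68.09%, 55.17%, 71.74% and 50% in the same order, against 36% of all tested genes, of which 24.9% rose.

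Averaged over all 77 members, log2(FPKM + 1) was 4.42 ± 0.095 (SD, n = 4) before and 4.14 ± 0.055 after differentiation of control cells, and 4.55 ± 0.056 before and 4.05 ± 0.13 after differentiation of tKO cells. The fall was 0.26 and 0.30 in the 2 control lines and 0.44 and 0.56 in the 2 tKO clones. Within cultures the pooled fall of 0.28 in control was 0.30 in BR1 and 0.26 in BR2, and the pooled fall of 0.50 in tKO was 0.49 and 0.51. The members took 0.289% of the fragments in GM and 0.246% in DM3 in control cells, and 0.319% and 0.229% in tKO cells. These means describe the set and carry no test.

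Neither the cytosolic ribosomal proteins nor the complex I subunits shared this fall in control cells. Of 81 tested cytosolic ribosomal proteins 25 rose and 3 fell there (median 0.25), and of 44 complex I subunits 23 rose and 4 fell (median 0.34). In tKO cells none of the cytosolic ribosomal proteins rose and 15 fell (median -0.12, which turned to 0.04 under median-of-ratios scaling), while 13 complex I subunits rose and 6 fell (median 0.16). In tKO DM3 the cytosolic set spread widely between libraries, with set means from 8.07 to 8.91. Of the 13 proteins encoded by mitochondrial DNA, the products of this ribosome, 8 fell and 1 rose in control (median -0.97; without control line 1, 1 fell and none rose) and 3 fell and 1 rose in tKO (median -0.34). In tKO the mean of those 13 differed between cultures, at -0.95 in BR1 and 0.24 in BR2.

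**Figure D4:**
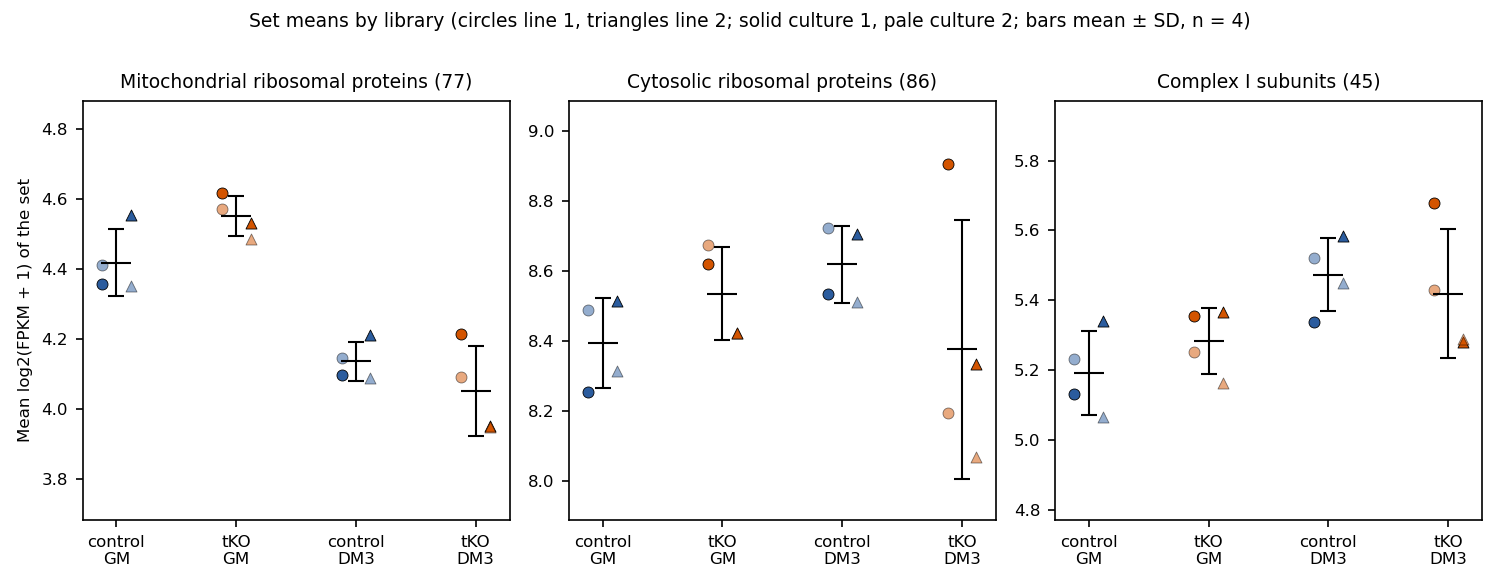
Mean log2(FPKM + 1) of the mitochondrial ribosomal proteins, the cytosolic ribosomal proteins and the complex I subunits in each of the 16 libraries, on axes of equal height, with the mean and SD of the 4 libraries of each group. The mitochondrial ribosomal means of all DM3 libraries lie below those of all GM libraries, whereas for the other sets the control DM3 group mean lies above that of control GM.

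Few members differed between the genotypes at either stage. In GM 1 member, Mrpl50, was higher in tKO (background 2.06%, with 0.549% higher and 1.51% lower), while 14 members had an unadjusted p under 0.05 (17.5% of all tested genes), 62 estimates were positive and 14 negative, and the median was 0.13 against -0.01 for all tested genes. In 9 members all tKO libraries lay above all control libraries (5.38% of all tested genes) and in none below (8.62%). In BR1 the GM median was 0.11 and in BR2 0.16. In DM3 Mrpl20 was higher and Mrps30 lower in tKO (background 3.38%, with 2.02% higher and 1.36% lower). There, 10 members had an unadjusted p under 0.05 (16.8% of all tested genes), 20 estimates were positive and 56 negative, and the median was -0.10 against 0.01 for all tested genes, with -0.063 in BR1 and -0.15 in BR2. The groups did not overlap in 2 members higher in tKO (4.22% of all tested genes) and 3 lower (4.3%). Without tKO clone 2 the DM3 median was -0.0065, and without clone 1 it was -0.19. Without tKO clone 2, 8 members passed in GM (11.1% of all tested genes) and 4 in DM3 (9.6%). Cytosolic ribosomal proteins leaned the same way, with 69 positive and 12 negative in GM (median 0.15) and 5 and 76 in DM3 (-0.26). Complex I subunits gave 26 positive and 18 negative in GM (0.02) and 13 and 31 in DM3 (-0.09). Members share libraries, so these counts of signs are descriptions.

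Mrpl50 (chromosome 4, 49512596 to 49521093) is a large subunit protein without a bacterial counterpart. In control GM it stood at 11.4, 11.1, 12.4 and 11.6 FPKM. In tKO GM it stood at 23.05 and 24.4 in clone 1 and at 15.7 and 16.0 in clone 2. Both clones lay above all control libraries, and the difference was 0.70 (SE 0.17, adjusted p = 0.0476). Without clone 1 it was 0.42 and without clone 2 it was 0.97, and the call was lost under 16 of 22 alternatives (adjusted p from 0.00621 to 0.81), among them leaving out any of the control libraries or either library of clone 1. In DM3 the groups overlapped (0.15, adjusted p = 0.722).

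The Mrpl20 difference in DM3 was 0.72 (SE 0.19, adjusted p = 0.0492). It rested on clone 1: the clone 2 values given above, 18.8 and 17.8 FPKM, lay within the control range of 10.97 to 19.1. Without clone 1 the difference was 0.32 and without clone 2 it was 1.12, and the call was lost under 16 of 22 alternatives (adjusted p from 0.00139 to 0.553). It was 0.49 in BR1, where the groups overlapped, and 0.95 in BR2.

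Mrps30 (chromosome 13, 118380110 to 118387252) also sits in the large subunit in spite of its name. In control DM3 it stood at 13.4, 11.53, 14.3 and 10.2 FPKM and in tKO DM3 at 9.66, 7.65, 9.37 and 7.46. All tKO values lay below all control values, and the difference was -0.48 (SE 0.12, adjusted p = 0.0372), with -0.49 in BR1 and -0.47 in BR2. Leaving out 1 clone or the other gave -0.50 and -0.47, neither past the threshold, and the call was lost under 13 of 22 alternatives (adjusted p from 0.0166 to 0.543). In GM its estimate was -0.08 (adjusted p = 0.781).

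Whether the DM3 against GM change itself differed between genotypes was tested as an interaction. No member passed with limma, with 11 at an unadjusted p under 0.05 and none by voom on fragment numbers (background 0.254%, with 0.203% higher and 0.0507% lower, and 10.8% at an unadjusted p under 0.05). The estimates leaned one way, with 68 negative and 8 positive and a median of -0.21 against 0.03 for all tested genes. The smallest p values belonged to Mrpl9 (-0.51, 95% interval -0.85 to -0.16, adjusted p = 0.26), Mrps9 (-0.40, -0.71 to -0.08, adjusted p = 0.329) and Mrpl32 (-0.48, -0.86 to -0.10, adjusted p = 0.331), all of which had risen in control cells. The lean was not particular to the members. Interaction estimates were negative for 80 cytosolic ribosomal proteins and positive for 1 (median -0.41). For complex I subunits 36 were negative and 8 positive (median -0.19). For the proteins encoded by mitochondrial DNA 1 was negative and 12 positive (median 0.62).

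The genes that serve this ribosome were then followed by lists. Beside their counts, 38.3% of all tested genes fell and 23.2% rose in control, and 36% fell and 24.9% rose in tKO. Of 6 ribosomal proteins not named Mrp, Chchd1 rose in control (0.37) and 2 fell in each genotype: Ptcd3, an RNA-binding small subunit protein (-1.32 and -1.38), and Gadd45gip1 (-0.67 and -0.73). Of 27 assembly factors 13 fell and 3 rose in control and 15 fell and 3 rose in tKO. Fastkd2, which binds the large ribosomal RNA, fell from 5.89 to 1.84 FPKM in control (-1.28) and from 7.41 to 1.91 FPKM in tKO (-1.60). Ftsj2, an rRNA methyltransferase, fell by 1.27 in control and 0.94 in tKO, and Noa1, a GTPase, fell by 1.19 in tKO.

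Translation factors gave 8 falls and 1 rise among 14 in each genotype. Lrpprc, which stabilises mitochondrial mRNAs, fell from 28.6 to 11.2 FPKM in control (-1.30) and from 30.4 to 13.6 in tKO (-1.17). Mtif2, the initiation factor, fell by 0.56 and 0.55, and Gfm1, an elongation factor, by 0.56 and 0.98. Mtrf1l, a release factor, fell by 0.90 in control. Tufm, another elongation factor, did not pass (0.11 in control and -0.21 in tKO). Oxa1l, the insertase that takes nascent chains into the inner membrane, rose in both (0.62 and 0.26).

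Of 21 mitochondrial aminoacyl-tRNA synthetases and related subunits, 12 fell in each genotype, with 1 rising in control and 2 in tKO. Yars2 fell by 1.03 and 1.42 and Pars2 by 0.99 and 0.75. Lars2, the leucine enzyme, rose in tKO (91.5 to 192 FPKM, 1.07) and Fars2, the phenylalanine enzyme, rose in both (0.95 and 1.03), while the control estimate of Lars2, 0.50, did not pass. Of 11 genes for mitochondrial DNA transcription and maintenance, 7 fell in control and 8 in tKO, among them Ssbp1 (-0.69 and -0.88), Tfam (-0.80 and -0.89), Polrmt (-0.57 and -0.35) and Tfb2m (-0.67 and -1.14).

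Of 9 regulators of mitochondrial biogenesis 5 fell and 1 rose in control, and 6 fell and 2 rose in tKO. Nrf1, a transcription factor of nuclear genes for mitochondria, fell by 0.85 and 0.84, and the coactivator Pprc1 fell by 1.07 and 1.51. Esrra, a nuclear receptor of the oxidative programme, rose by 0.89 and 0.66. Ppargc1a was low, at 0.39 FPKM in control GM and 1.14 in control DM3, and passed in tKO (0.71, adjusted p = 0.0489) and not in control (0.62, adjusted p = 0.0817). Myc did not pass in control (0.08) and fell in tKO (-0.59, adjusted p = 0.032). None of the genes of these lists passed in a genotype comparison.

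In control cells the medians of these lists lay between -0.16 and -0.43, against -0.15 for all tested genes. In tKO cells they lay between -0.10 and -0.59, against -0.12. Median-of-ratios scaling turned the median of the ribosomal proteins not named Mrp to 0.03 in control and 0.04 in tKO, and the others stayed negative in both genotypes.

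The promoters of 66 members, 65 of them tested, could be read from RefSeq (build GRCm38.p6), within 1000 bases of the start used in the table. Each window covers 300 bases around the start. Motifs were searched on both strands as exact letters. The NRF1 motif (GCGCA, any base, then GCGC) was found in 13 of the 65 (20%, against 11.9% of 7722 tested protein-coding genes) and the ETS motif CCGGAAG in 22 (33.8% against 20.3%). YY1, AANATGGCG, was found in 9 (13.8% against 6.16%). The SP1 motif GGGCGG was found in 33 (50.8% against 68.4%), the E-box CACGTG in 5 (7.69% against 10.6%) and the TATA box TATAAA in 3 (4.62% against 6.35%). In 61 promoters of cytosolic ribosomal proteins NRF1 was found in 6.56%, ETS in 36.1% and YY1 in 9.84%. Such matches are descriptions of letters and not evidence of binding.

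Among the 33 members with a promoter that fell in both genotypes, the NRF1 motif was found in 2 (6.06%), Mrpl12 and Mrps26. Among the other 32 tested members it was found in 11 (34.4%). Those 11 were Mrpl9, Mrpl14, Mrpl17, Mrpl30, Mrpl32, Mrpl39, Mrpl44, Mrpl45, Mrpl57, Mrps9 and Mrps21, of which Mrpl9, Mrpl32 and Mrps9 rose in control cells, Mrpl17 (-0.40) and Mrpl44 (-0.44) fell in tKO cells, and the other 6 passed in neither genotype. The ETS motif was found in 33.3% and 34.4%. YY1 was found in 2 (6.06%) and 7 (21.9%), SP1 in 17 and 16, the E-box in 3 and 2, and the TATA box in 3 and 0. The groups were formed from the measured changes after they were seen, so no test is given. The following windows show 2 members that rose in control cells with the NRF1 motif, 1 member that fell with it, and Mrpl18, which fell and holds the ETS motif. They lie at chr13:14612988-14613287 on the minus strand (Mrpl32), chr1:42850983-42851282 on the plus strand (Mrps9), chr11:120484387-120484686 on the plus strand (Mrpl12) and chr17:12916042-12916341 on the minus strand (Mrpl18). The letters run from 5′ to 3′ on the gene's strand, and capitals mark NRF1 or ETS matches on either strand.
Mrpl32 promoter: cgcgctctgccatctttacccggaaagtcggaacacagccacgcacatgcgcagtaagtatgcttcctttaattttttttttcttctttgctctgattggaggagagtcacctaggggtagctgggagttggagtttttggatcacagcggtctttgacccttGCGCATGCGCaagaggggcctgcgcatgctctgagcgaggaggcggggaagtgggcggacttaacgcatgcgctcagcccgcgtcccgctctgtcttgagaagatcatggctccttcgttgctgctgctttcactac
Mrps9 promoter: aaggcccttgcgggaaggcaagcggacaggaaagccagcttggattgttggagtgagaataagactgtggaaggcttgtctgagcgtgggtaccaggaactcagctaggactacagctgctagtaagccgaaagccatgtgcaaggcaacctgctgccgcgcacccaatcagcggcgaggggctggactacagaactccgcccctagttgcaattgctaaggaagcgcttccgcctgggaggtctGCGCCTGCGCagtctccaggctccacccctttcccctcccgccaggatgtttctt
Mrpl12 promoter: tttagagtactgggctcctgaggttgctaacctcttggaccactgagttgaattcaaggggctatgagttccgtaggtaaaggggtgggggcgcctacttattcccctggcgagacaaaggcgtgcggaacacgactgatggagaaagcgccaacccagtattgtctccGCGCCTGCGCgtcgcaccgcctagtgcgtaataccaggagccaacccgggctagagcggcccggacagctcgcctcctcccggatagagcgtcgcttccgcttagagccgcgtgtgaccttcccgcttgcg
Mrpl18 promoter: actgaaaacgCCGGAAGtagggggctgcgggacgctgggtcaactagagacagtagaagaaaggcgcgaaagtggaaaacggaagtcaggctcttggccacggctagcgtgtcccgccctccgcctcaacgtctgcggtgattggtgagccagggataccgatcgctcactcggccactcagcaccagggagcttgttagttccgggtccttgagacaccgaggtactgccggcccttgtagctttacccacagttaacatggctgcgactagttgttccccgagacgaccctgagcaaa

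Many members share a start region with a neighbour. A protein-coding gene on the other strand started within 1000 bases of 30 of the 76 tested members (39.5%), against 1863 of 10930 tested protein-coding genes (17%). In 26 such pairs both genes were tested. Both fell in 7 pairs in control and 9 in tKO, and 1 pair in each genotype passed in opposite directions. The member alone passed in 7 and 9 pairs, the neighbour alone in 7 and 6, and neither in 4 and 1. Of all tested genes 38.3% fell in control and 36% in tKO. How often neighbouring genes outside the members fell together was not counted, so shared change within pairs was not tested.

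Mrps11 and Mrpl46 on chromosome 7 are both members and overlap at their starts (Mrps11 78783119 to 78792989, Mrpl46 78775236 to 78783531). They fell by 0.95 and 0.76 in control and by 0.96 and 0.76 in tKO. Mrps12 and Sars2, the serine synthetase of mitochondria, fell by 0.40 and 0.94 in control. Mrpl18 and Tcp1, a subunit of the cytosolic chaperonin, fell by 1.24 and 0.68. In contrast, Mrpl47 fell by 0.72 while Ndufb5, a complex I subunit, rose by 0.57, from 32.04 ± 3.68 to 47.7 ± 3.16 FPKM. The neighbour with the steepest fall was Ppp1r10 beside Mrps18b, from 31.2 ± 4.46 to 2.37 ± 1.47 FPKM in control (-3.34), and the neighbour with the largest rise among the 26 pairs was Tmem63b beside Mrpl14 (a rise of 0.60 in control and 0.64 in tKO).

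**Figure D5:**
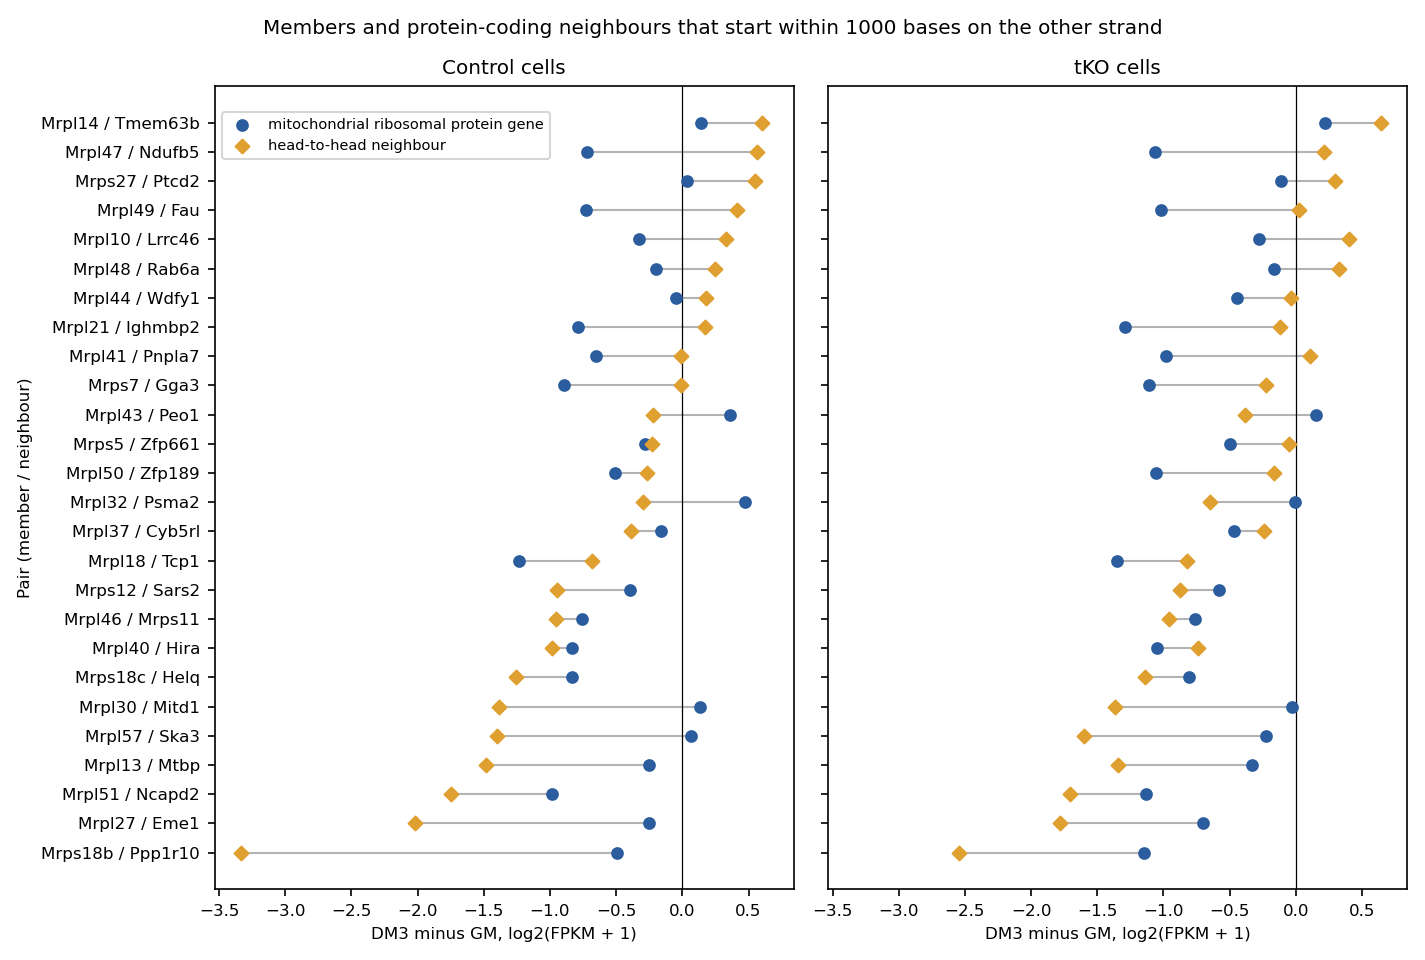
DM3 minus GM change of members (circles) and of the protein-coding neighbour that starts within 1000 bases on the other strand (diamonds), for the 26 pairs with both genes tested, in control cells (left) and tKO cells (right); in the pair Mrpl46 / Mrps11 both are members. Neighbours range from -3.34 to 0.60 in control cells, and members such as Mrpl47 lie on the other side of 0 from their neighbour.

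In 20 expressed members the interval overlaps that of another gene at 0.5 FPKM or more. Whether the counting used strand is not given in the sources used here, so reads of such genes may be mixed. Mrpl33, which rose in control, shares 4289 bases with Bre (11.8 FPKM) on the same strand. Mrpl24, which rose in tKO, shares 1072 bases with Rrnad1 (2.98 FPKM) on the other strand. Members that fell overlap other genes too, such as Mrpl18, which shares 645 bases with Tcp1 (104 FPKM). Among the 56 tested members without such an overlap, 25 fell and 5 rose in control and 33 fell and none rose in tKO. The falls were 44.64% in control and 58.93% in tKO, against 38.3% and 36% of all tested genes. The median change of the 56 in control was -0.154, near the -0.153 of all tested genes. In tKO it was -0.43 against -0.12.

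Matches to the seed of the deleted miRNAs were counted in the 3′ UTRs. Mature miR-206 is encoded on chromosome 1 (GRCm38.p6, 20679055 to 20679076, plus strand), and miR-1a shares its seed, the stretch of bases that pairs with target mRNAs. It is shown with the seed, bases 2 to 8, in capitals, beside the 2 longest seed matches in members, with the match in capitals.
miR-206-3p: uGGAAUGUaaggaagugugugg
Mrpl32 site: taatagaaataatcACATTCCAttgtcgtc
Mrps25 site: ttgagcattttcctACATTCCAtgtataaa

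An ACATTCCA, ACATTCC or CATTCCA site on the sense strand of the longest annotated 3′ UTR occurred in 11 of the 75 tested members with an annotated 3′ UTR (14.7%; Mrpl33 had none here), against 2048 of 10806 tested genes with a 3′ UTR (19%). The median 3′ UTR of these members was 390 bases and that of tested genes 1191 bases. The full ACATTCCA site occurred only in Mrpl32 and Mrps25 among these 75 (2.67% against 4.46%). The annotated UTR of Mrpl32 (2302 bases) is longer than the whole gene length the table uses (768 bases), so whether the transcripts measured here carry its site was not tested. In growth medium Mrps25 stood at 5.84 ± 0.832 FPKM in control and 5.86 ± 0.815 in tKO cells, and after differentiation at 3.55 ± 0.242 and 2.94 ± 0.226. Neither gene passed in a genotype comparison: tKO minus control was 0.12 in GM and -0.36 in DM3 for Mrpl32, and 0.0043 and -0.21 for Mrps25. Under 1 of 22 alternatives Mrpl32 did pass in DM3 (adjusted p from 0.0254 to 0.863 over them).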

How the data were processed

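Poly(A) RNA of 16 C2C12 libraries was sequenced on an Illumina HiSeq instrument, per the labels' protocols. The authors deposited 1 table of FPKM per gene and library, without raw read numbers. The submitters' processing notes name STAR, DESeq and the build mm10; how strands were counted is not given in the sources used here. FPKM times gene length fell on whole multiples of 1 fragment in every library (tolerance 0.05 fragments), which gave the depth.

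log2(FPKM + 1) was fitted with limma 3.58.1 (R 4.3.3): a group-means model over all 16 libraries, empirical Bayes moderation with trend and robust options, and Benjamini-Hochberg adjustment over 11832 genes with a mean of at least 0.5 FPKM, calling at adjusted p under 0.05. Changes are differences of log2(FPKM + 1), which understate those of low genes. p-values reflect the spread between libraries of 2 lines and 2 cultures, which may be partly technical. The same lines were sampled at both stages, and the fit had no term for line. The test was checked on simulated data. Other tables were made with Python 3.11.15, pandas 2.3.3 and scipy 1.17.1.

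The members and gene lists were chosen with earlier results of these data known. Named members were the 6 highest and 6 lowest by level and by change in each differentiation comparison, those called between genotypes, the 3 smallest p values of the interaction, a set chosen by role, those with a full seed site, those below the filter and those of the extreme neighbour pairs. Mrpl46, Mrps7 and the members named for a promoter motif or another neighbour pair were added after their values were seen. For gene lists, the 2 most changed genes per comparison and genes chosen by role were named; Chchd1 and Oxa1l were added likewise. Promoters and miRNAs came from RefSeq (GRCm38.p6) and 3′ UTRs from GENCODE. Alternatives were pseudocount, filter, scaling, voom on recovered fragment numbers, moderation, libraries used, line averages, a replicate block, and leaving out each library or line.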

Additional observations from a re-analysis of the deposited data

Results flagged for a closer look

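In 6 of 112 groups of 4 libraries examined for the named members, 1 library stood far from the other 3 (Dixon's test of the gap over the range); chance gives about 1 group in 20. Mrpl32 in control DM3 was lowest in line 2 BR2, at 27.13 FPKM against 31.69 to 32.48 in the others. Mrpl54 in control GM was highest in line 2 BR1, at 97.79 FPKM against 81.77 to 84.15. Mrps18a in tKO DM3 was highest in clone 1 BR1, at 13.22 FPKM against 8.928 to 9.206. Mrps18c in control DM3 was highest in line 2 BR1, at 24.4 FPKM against 21.08 to 21.63, and in tKO DM3 it was lowest in clone 1 BR2, at 17.04 FPKM against 20.51 to 21.16. Mrps25 in tKO DM3 was lowest in clone 1 BR1, at 2.606 FPKM against 3.042 to 3.073.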

How the results depend on the processing

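The differentiation counts, summed over both directions, kept within 1.5 times of their value under every alternative except leaving out a control line (by direction, median-of-ratios scaling moved the control falls from 35 to 23 and the rises from 6 to 15): without control line 1 the control count was 22 and without control line 2 it was 23, where 2 libraries per control group remained. Between genotypes in GM the count was 0 with no filter, a filter of 5 FPKM, TPM scaling, voom, plain moderation (neither trend nor robust), a fit to the compared groups alone, averages per line, and without control line 1, control line 2 or tKO clone 1, and 8 without tKO clone 2; leaving out 1 library gave 0 to 1. In DM3 it was 1 with a pseudocount of 0.1, a filter of 5 FPKM, voom and plain moderation, 0 with no filter, median-of-ratios scaling, a fit to the compared groups alone, averages per line and without either control line, and 4 without tKO clone 2; leaving out 1 library gave 0 to 3. Leaving out 1 library gave an interaction count of 0 to 1.

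Estimates that changed sign were all uncalled. Under median-of-ratios scaling Mrpl44 in control was 0.14, and in tKO Mrpl32 was 0.15, Mrpl38 0.11 and Mrps30 0.14. Under TPM scaling Mrpl32 was 0.015 and Mrps30 0.015 in tKO, and Mrps25 was -0.047 between genotypes in GM. Without control line 2 Mrpl44 was 0.054, and without control line 1 Mrps25 was -0.038. Without tKO clone 1 Mrpl33 was -0.012 and Mrps30 0.0695, and without tKO clone 2 Mrpl32 was 0.14 and Mrps25 -0.067. Leaving out 1 library gave Mrpl44 in control -0.10 to 0.015, Mrps25 in GM -0.069 to 0.079, and in tKO Mrpl32 -0.12 to 0.087, Mrpl38 -0.19 to 0.032, Mrps30 -0.069 to 0.049 and Mrps36 -0.033 to 0.23. The cause was not tested. Of 1159 values of the named members under alternatives, 1020 kept direction and side of the threshold, 86 lost their call, 24 gained one and 29 changed sign.

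With a replicate block for the BR number, the counts were 42, 50, 1, 2 and 0 for control differentiation, tKO differentiation, genotype in GM, genotype in DM3 and the interaction. Deviations of same-numbered cultures correlated between 0.096 and 0.45 in GM, all 8 above 0, and between -0.22 and 0.56 in DM3, so the numbers were not taken to pair the libraries throughout. Each expressed member had at least 177 fragments in every library.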
